A study of Mus musculus with 4 samples.

Results

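A set of 40 skeletal muscle genes was followed through the 4 facial processes of the mouse embryo, out of 43346 gene entries measured in each library. The set was defined by role and not by level, but it was chosen with earlier results of these data known. It holds 6 regulators of the muscle lineage (Myf5, Myf6, Myod1, Myog, Msc and Tcf21) and 34 contractile or otherwise muscle-specific genes. Gene IDs were matched to symbols through GENCODE M21, and each of the 40 symbols matched 1 ID. The RNA came from the mandibular, maxillary, lateral nasal and medial nasal processes of wild-type (WT) embryos at e11.5, with 1 library per process and the cell type given as mixed. Strain, embryo numbers and any pooling of embryos were not given in the sources used here. The sample titled as medial nasal carries, in its tissue label, the abbreviation of the lateral nasal process, and it was used here under its title. Since no process had a second library, no difference could be set against replicate error, no p-value is given, and every interval below is a 95% interval for counting error alone.

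Skeletal muscle forms when precursor cells switch on the MyoD family of basic helix-loop-helix factors. Myf5 and Myod1 act early and commit cells to the lineage, and Myog (myogenin) drives them into differentiation, after which genes of the sarcomere, the contractile unit built of myosin and actin filaments, are expressed. The jaw muscles arise from mesoderm in the core of the first pharyngeal arch, which makes the mandibular and maxillary processes, and the factors Msc (musculin) and Tcf21 (capsulin) are expressed in these precursors before the MyoD family. The nasal processes consist largely of neural crest mesenchyme under an epithelium.

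Factors of the MyoD family bind the E-box, a DNA motif spelled CANNTG, and muscle promoters can also hold sites for MEF2 and, in the CArG box, for serum response factor. To show what stands before genes whose levels are described below, the bases upstream of 6 members are printed, with E-boxes, MEF2 sites and CArG boxes in capitals. Both strands were searched, MEF2 sites and CArG boxes by their strict consensus, which leaves a site that departs from it in lower case, and the core CAGCTG, preferred by the MyoD family, is 1 form of the E-box. The sequences are RefSeq's for GRCm38.p6, each 200 bases long, read 5′ to 3′ in the direction of the gene, none overlaps an annotated exon, and each ends 0 to 29 bases before the RefSeq start site. For Actc1, Tnnt1, Mylpf and Chrng, GENCODE M21 places the gene start further upstream, so for these genes the printed bases lie in an intron of that annotation. Myog (plus strand, chr1:134289789-134289988) was the most abundant regulator, Actc1 (minus strand, chr2:114052888-114053087) and Tnnt1 (minus strand, chr7:4516005-4516204) were the leading actin and troponin genes, and Ttn (minus strand, chr2:76982548-76982747) held the most counts. Mylpf (plus strand, chr7:127211408-127211607) differed little between the first arch libraries, and Chrng (plus strand, chr1:87205610-87205809) is a receptor gene that differed more.
Myog: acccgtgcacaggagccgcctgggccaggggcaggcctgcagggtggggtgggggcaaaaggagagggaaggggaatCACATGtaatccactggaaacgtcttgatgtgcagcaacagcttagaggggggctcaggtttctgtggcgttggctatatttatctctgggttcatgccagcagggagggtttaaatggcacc
Actc1: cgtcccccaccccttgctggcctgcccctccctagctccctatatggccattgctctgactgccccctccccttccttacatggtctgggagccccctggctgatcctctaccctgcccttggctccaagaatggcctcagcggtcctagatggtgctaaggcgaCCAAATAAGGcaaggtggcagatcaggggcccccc
Tnnt1: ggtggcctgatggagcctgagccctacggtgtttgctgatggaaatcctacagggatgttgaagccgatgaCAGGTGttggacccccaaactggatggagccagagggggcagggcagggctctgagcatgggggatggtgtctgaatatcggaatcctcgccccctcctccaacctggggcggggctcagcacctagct
Ttn: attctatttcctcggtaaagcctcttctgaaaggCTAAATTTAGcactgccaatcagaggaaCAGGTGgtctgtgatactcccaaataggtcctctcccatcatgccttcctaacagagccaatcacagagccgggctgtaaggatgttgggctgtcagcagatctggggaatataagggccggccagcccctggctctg
Mylpf: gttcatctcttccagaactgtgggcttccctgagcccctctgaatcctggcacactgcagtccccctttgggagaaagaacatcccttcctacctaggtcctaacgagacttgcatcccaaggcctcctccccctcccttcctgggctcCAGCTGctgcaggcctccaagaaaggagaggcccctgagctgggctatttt
Chrng: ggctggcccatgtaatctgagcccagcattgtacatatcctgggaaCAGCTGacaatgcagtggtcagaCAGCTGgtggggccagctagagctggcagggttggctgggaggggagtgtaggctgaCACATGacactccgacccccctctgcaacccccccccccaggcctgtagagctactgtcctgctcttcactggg
Within these bases Chrng held 3 E-boxes, of which 2 had the CAGCTG core, and Mylpf held 1, also with that core. Myog and Tnnt1 held 1 E-box each, Ttn held 1 E-box and 1 MEF2 site, and Actc1 held 1 CArG box and no E-box. With 1 mismatch allowed, the Myog bases also held 1 match to the MEF2 consensus, printed in lower case, and those of Actc1, Tnnt1, Mylpf and Chrng held 0. Of the 40 members, 30 had an entry in the promoter table, with 33 windows of 300 bases around their start sites. The CAGCTG core was found in 14 of the 33 member windows (42.4%) and in 16.3% of all 32851 windows, while any E-box was found in 87.9% of member windows and 72.3% of all windows. MEF2 sites stood in 9.09% of member windows (Myh8, Ttn and Klhl41) and 3.19% of all, and CArG boxes in 9.09% (Actc1, Acta1 and Myom1) and 1.63%. A match describes the letters in the window and no binding was measured.

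The 4 libraries held 13216199 to 16163913 counts, so that 3 counts, the value put in place of a count of 0, corresponded to 0.185 to 0.223 CPM. CPM are counts scaled to a library of 1000000 counts after TMM normalization and serve to compare a gene between libraries, and TPM, which also correct for transcript length, serve to compare genes. Marker genes of regional identity followed the labels, with Hand2, a gene of the distal first arch, at 1386 counts in the mandibular library, 20 in the maxillary, 5 in the lateral nasal and 0 in the medial nasal library.

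The 40 members together reached 994 CPM in mandibular tissue and 378 CPM in maxillary tissue, against 97.3 CPM in the lateral nasal and 82.8 CPM in the medial nasal library. Ttn, which encodes the giant sarcomere protein titin, contributed more counts than any other member, and without it the sums were 448, 191, 69.0 and 71.0 CPM in the same order. In CPM, 39 of the 40 genes were highest in the mandibular library (26.9% of the 16146 genes with at least 1 CPM in a library), and 36 (15.5% of those genes; the exceptions were Myf6, Tpm2, Chrnd and Ckm) were higher in both first arch libraries than in either nasal library. The exception to the first count was Myf6, a late member of the MyoD family, which had 0 counts in the mandibular, 1 in the maxillary, 0 in the lateral nasal and 2 in the medial nasal library. In bulk RNA, a smaller share of muscle cells and less RNA per cell cannot be told apart, so these levels describe the tissue and not the cell.

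**Figure D1:**
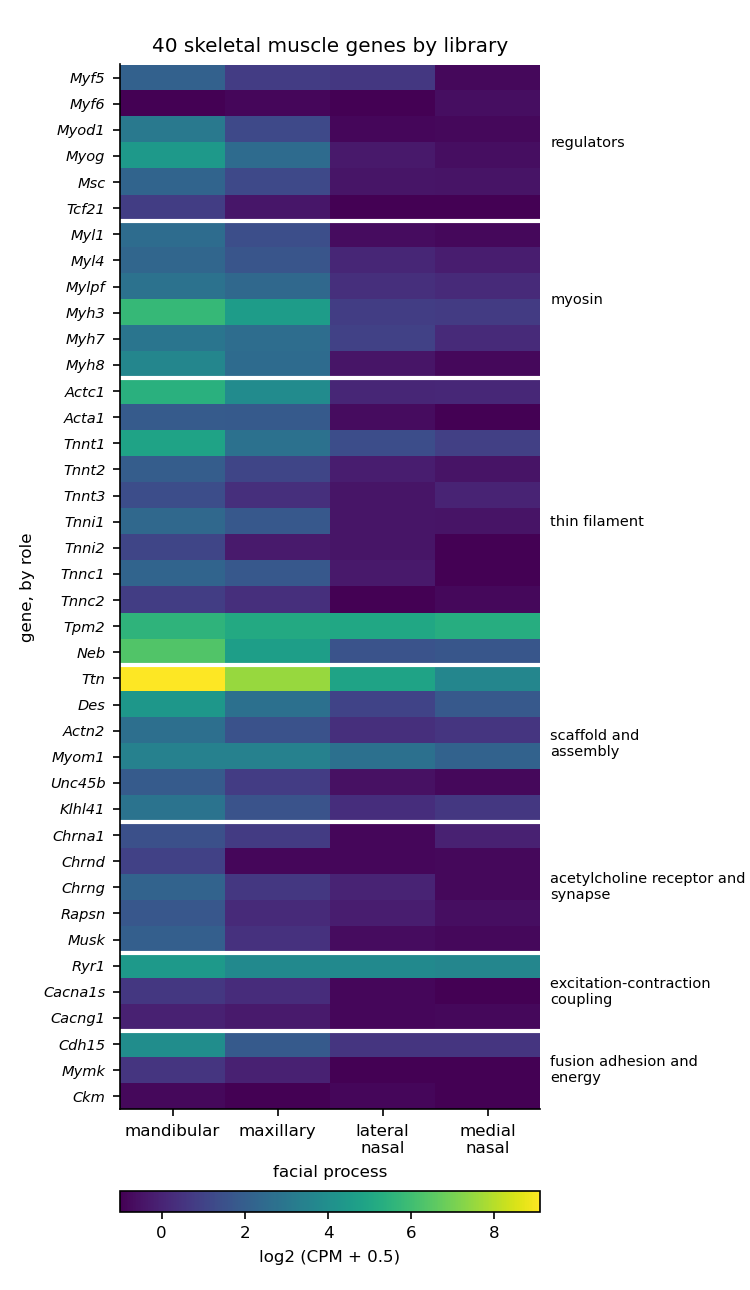
Level of each of the 40 skeletal muscle genes (rows, grouped by role) in the 4 libraries (columns), as log2 of CPM plus 0.5, with 1 library per process. The mandibular column is the brightest for 39 genes. Ttn reaches the highest level at 546 CPM, and Ttn, Tpm2, Ryr1 and Myom1 stay at 4.07 CPM or more in all 4 columns.

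A call of higher needed a level of 5 CPM and a gap of 2-fold or more, on CPM plus 0.5, over each library compared. By this rule 13 of the 40 members were higher in the mandibular library than in each of the other 3, against 0.65% of the 16146 genes tested. They were Myod1, Myog, Myl1, Myh3, Myh8, Actc1, Tnnt1, Neb, Ttn, Des, Actn2, Klhl41 and Cdh15. The same 13 were higher in the mandibular than in the maxillary library, where the background was 1.36%, and no member was higher in the maxillary library (0.669%). Both first arch libraries stood above both nasal libraries for 8 members (background 0.204%), namely Myog, Myh3, Myh7, Myh8, Actc1, Tnnt1, Neb and Ttn, and the reverse held for 0 members (0.706%). Taken alone, the maxillary library was higher than the lateral nasal library for 9 members (background 0.818%) and than the medial nasal library for 9 (0.892%). No member was higher in the maxillary (background 0.155%), lateral nasal (0.173%) or medial nasal library (0.768%) than in each of the others. Only 18 members reached 5 CPM in any library, and with a minimum of 1 CPM, which 36 reached, the counts became 22 in the mandibular library (background 1.09%), 22 against the maxillary library alone (2.73%) and 20 in the first arch (0.409%).

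Among the regulators, Myog (chromosome 1, 134289989 to 134292548, GRCm38) had 290 counts in the mandibular, 79 in the maxillary, 5 in the lateral nasal and 2 in the medial nasal library. This made 21.5, 5.20, 0.31 and 0.15 CPM. The mandibular level was 4.14-fold that of the maxillary library (interval 3.22 to 5.38) and 70.0-fold that of the lateral nasal library (interval 29.6 to 217). Myod1 (chromosome 7, 46376474 to 46379099) followed the same order in the first arch, with 108 counts in the mandibular and 28 in the maxillary library, and had 1 count in each nasal library. Its mandibular level was 8.02 CPM against 1.84 CPM in the maxillary library, a 4.35-fold difference (interval 2.85 to 6.85). In the nasal libraries both genes thus had 5 counts or fewer.

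Myf5 (chromosome 10, 107482908 to 107486134) was distributed differently. It had 53 counts in the mandibular, 19 in the maxillary, 17 in the lateral nasal and 1 in the medial nasal library, or 3.93, 1.25, 1.05 and 0.07 CPM. The mandibular level was 3.14-fold the maxillary level (interval 1.83 to 5.62), whereas the maxillary and lateral nasal levels were not distinguishable at this depth, with a ratio of 1.20 (interval 0.589 to 2.45). The lateral nasal library held 14.2-fold more Myf5 than the medial nasal library, with an interval of 2.22 to 592 that reflects the single medial count. Per Myog count, the lateral nasal library had 3.40 Myf5 counts, against 0.18 in the mandibular library, and the ratio of these ratios was 18.4 (interval 6.17 to 66.5). Against the maxillary library, with 0.24 Myf5 counts per Myog count, it was 13.7 (interval 4.21 to 53.8). This pair of genes was chosen after its values were seen. Myf6 lies 6.718 kb from Myf5 on the same chromosome with no protein-coding gene between them, and its 0 to 2 counts allowed no comparison.

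The precursor factors Msc and Tcf21 were also highest in the mandibular library. Msc had 57 counts in the mandibular, 28 in the maxillary, 4 in the lateral nasal and 3 in the medial nasal library, and its mandibular level was 2.29-fold the maxillary level (interval 1.44 to 3.75). Tcf21 had 17 mandibular and 4 maxillary counts, a 4.79-fold difference (interval 1.56 to 19.6), and 0 counts in both nasal libraries. With 3 counts put in place of 0, its mandibular level was 5.69-fold the medial nasal level, a value without an interval. On the per-length scale Myog made up 70.4% of the TPM of the MyoD family in the mandibular and 68.5% in the maxillary library. In the lateral nasal library Myf5 made up 67.1%, from 23 counts of the family in all.

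**Figure D2:**
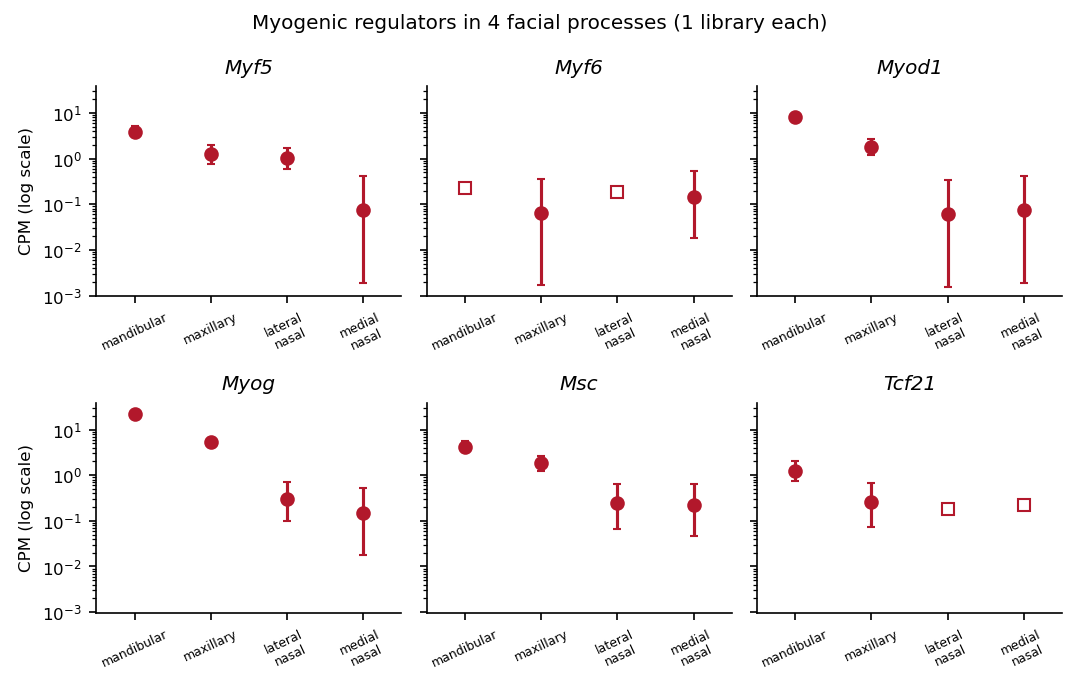
CPM (log scale) of the 6 regulators in the 4 libraries (1 point each), 95% counting intervals as bars and open squares at the level of 3 counts where the count was 0. Myog and Myod1 drop to 5 counts or fewer in the nasal libraries, while Myf5 stays at 1.05 CPM in the lateral nasal library.

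The myosin genes encode the motor of the thick filament. Myh3, the embryonic heavy chain, had 53.5 CPM in the mandibular, 23.5 CPM in the maxillary, 1.29 CPM in the lateral nasal and 1.18 CPM in the medial nasal library. Myh8, the perinatal heavy chain, had 12.0, 5.20, 0.25 and 0.07 CPM in the same order. The mandibular level was 2.28-fold the maxillary level for Myh3 (interval 2.002 to 2.59) and 2.30-fold for Myh8 (interval 1.74 to 3.05), with overlapping intervals. Myh7, the slow heavy chain that the heart also uses, stood at 7.05 CPM in mandibular tissue and 5.53 CPM in maxillary tissue, against 1.42 CPM in the lateral nasal and 0.67 CPM in the medial nasal library. It separated the first arch from the nasal libraries, with a maxillary level 3.91-fold the lateral nasal level (interval 2.44 to 6.50), but not the first arch libraries from each other (1.27-fold, interval 0.94 to 1.73).

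The light chains also ranged in their fold between the first arch libraries, but with overlapping intervals. Myl1, an essential light chain of fast muscle, had 5.49 CPM in mandibular tissue and 2.17 CPM in maxillary tissue (2.53-fold, interval 1.66 to 3.93), with 2 counts in the lateral nasal and 1 in the medial nasal library. Mylpf, the regulatory light chain of fast muscle, had 6.53 CPM in the mandibular, 4.87 CPM in the maxillary, 0.80 CPM in the lateral nasal and 0.67 CPM in the medial nasal library, and its first arch levels differed by 1.34-fold (interval 0.973 to 1.85). Myl4, the embryonic and atrial light chain, lay between them at 1.72-fold (interval 1.14 to 2.63). The 6 myosin genes were all higher in both first arch libraries than in either nasal library (15.5% of all genes tested were), with a median log2 difference of 2.53 between the first arch and nasal means.

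In the thin filament, Actc1, the actin that embryonic skeletal muscle shares with the heart, had 42.3 CPM in mandibular tissue and 14.1 CPM in maxillary tissue, against 0.55 CPM in the lateral nasal and 0.59 CPM in the medial nasal library. Acta1, the actin of mature skeletal muscle, had 44 counts in the mandibular, 47 in the maxillary, 2 in the lateral nasal and 0 in the medial nasal library. The first arch libraries therefore differed 3.002-fold in Actc1 (interval 2.56 to 3.53) and 1.06-fold in Acta1 (interval 0.683 to 1.63). Actc1 counts per Acta1 count were 12.95 in the mandibular and 4.55 in the maxillary library, a ratio of 2.84 (interval 1.79 to 4.53). This pair, too, was chosen after its values were seen.

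Tnnt1, the slow troponin T, had 28.8 CPM in the mandibular, 6.32 CPM in the maxillary, 2.09 CPM in the lateral nasal and 1.404 CPM in the medial nasal library. Its mandibular level was 4.56-fold the maxillary level (interval 3.63 to 5.76). Tnnc1, the troponin C of slow and heart muscle, had 57 mandibular and 44 maxillary counts and differed by 1.46-fold (interval 0.968 to 2.22). The other troponin members (Tnnt2, Tnnt3, Tnni1, Tnni2 and Tnnc2) had 17 to 65 counts in the mandibular and 5 to 44 in the maxillary library, with mandibular levels 1.60-fold to 4.96-fold the maxillary levels.

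Neb, which encodes nebulin, the ruler of the thin filament, had 82.2 CPM in the mandibular, 24.8 CPM in the maxillary, 2.52 CPM in the lateral nasal and 2.73 CPM in the medial nasal library. The mandibular level was 3.32-fold the maxillary level (interval 2.95 to 3.74). Tpm2, a tropomyosin that is also made outside skeletal muscle, differed from the rest, with 47.1, 34.1, 31.4 and 38.7 CPM in the mandibular, maxillary, lateral nasal and medial nasal libraries. Its maxillary level lay between the nasal levels, so the first arch and nasal groups overlapped.

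Titin was the member with the most counts. Ttn (chromosome 2, 76703980 to 76982547) had 7356 counts in the mandibular, 2847 in the maxillary, 460 in the lateral nasal and 160 in the medial nasal library, or 546, 188, 28.3 and 11.8 CPM. The mandibular level was 2.91-fold the maxillary level (interval 2.79 to 3.04), and the lateral nasal level was 2.39-fold the medial nasal level (interval 1.996 to 2.88). It was the 1 member of 40 called higher in the lateral than in the medial nasal library, where the background was 0.465%, and no member was called in the other direction (1.54%). The nasal libraries were not distinguishable in Neb, with a lateral over medial ratio of 0.923 (interval 0.577 to 1.48), and Ttn counts per Neb count were 11.2 in the lateral and 4.32 in the medial nasal library, a ratio of 2.59 (interval 1.56 to 4.31) for a pair chosen after its values were seen.

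Des, the muscle intermediate filament desmin, had 19.97 CPM in the mandibular, 6.13 CPM in the maxillary, 1.54 CPM in the lateral nasal and 3.03 CPM in the medial nasal library. Its nasal order was the reverse of that of Ttn, with a lateral over medial ratio of 0.508 (interval 0.296 to 0.855). Actn2, the α-actinin of the Z-disc, had 6.01, 2.44, 0.80 and 0.96 CPM in the mandibular, maxillary, lateral nasal and medial nasal libraries. Klhl41, a sarcomere assembly protein, had 6.68, 2.50, 0.74 and 1.03 CPM in that order. The mandibular level was 2.47-fold the maxillary level for Actn2 (interval 1.65 to 3.75) and 2.67-fold for Klhl41 (interval 1.81 to 4.01). Myom1, a protein of the M-band, was level in the first arch, at 10.4 CPM in mandibular tissue and 10.3 CPM in maxillary tissue (1.01-fold, interval 0.799 to 1.28), against 6.03 CPM in the lateral nasal and 4.07 CPM in the medial nasal library. Unc45b, a myosin chaperone, had 44 mandibular, 19 maxillary, 3 lateral nasal and 1 medial nasal counts.

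The genes of the acetylcholine receptor and the nerve-muscle synapse were expressed at low levels, and none of the 5 members reached 5 CPM. In the mandibular library they had 19 to 55 counts, and in each case the mandibular level was above the maxillary level with an interval that left out 1. Chrng, the γ subunit of the fetal receptor, had 55, 16, 8 and 1 counts in the mandibular, maxillary, lateral nasal and medial nasal libraries, a 3.87-fold difference between the first arch libraries (interval 2.19 to 7.24). The subunit gene Chrnd lies 4.586 kb from it, and had 19 mandibular counts and 1 count in each of the other 3 libraries. Its 21.4-fold difference from the maxillary library had an interval of 3.40 to 890. Musk, the receptor kinase that organizes the synapse, and Rapsn, which clusters receptors, had mandibular levels that were 4.34-fold (Musk, interval 2.32 to 8.70) and 4.28-fold the maxillary level (Rapsn, interval 2.09 to 9.64). The α subunit gene Chrna1 differed by 1.88-fold (interval 1.01 to 3.58). Chrne, the subunit of the adult receptor and not a member, had 0 counts in both first arch libraries and 1 in each nasal library.

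Among the genes of excitation-contraction coupling, Ryr1, the calcium release channel, had 21.0, 13.4, 13.2 and 11.8 CPM in the mandibular, maxillary, lateral nasal and medial nasal libraries. The mandibular library stood apart by 1.57-fold over the maxillary (interval 1.31 to 1.89), and the maxillary and lateral nasal libraries were not distinguishable (1.02-fold, interval 0.834 to 1.24). Cacna1s, the voltage sensor, and Cacng1 had at most 14 counts in any library. Cdh15, the adhesion molecule M-cadherin of muscle precursors, had 14.9 CPM in the mandibular, 3.16 CPM in the maxillary, 0.98 CPM in the lateral nasal and 0.96 CPM in the medial nasal library. It differed 4.72-fold between the first arch libraries, and the interval (3.43 to 6.61) overlapped those of Myod1 and Myog. Mymk, the fusion protein myomaker, had 13 mandibular and 7 maxillary counts and 0 in both nasal libraries, and Ckm, the creatine kinase of mature muscle, had 1 or 0 counts in each library.

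**Figure D3:**
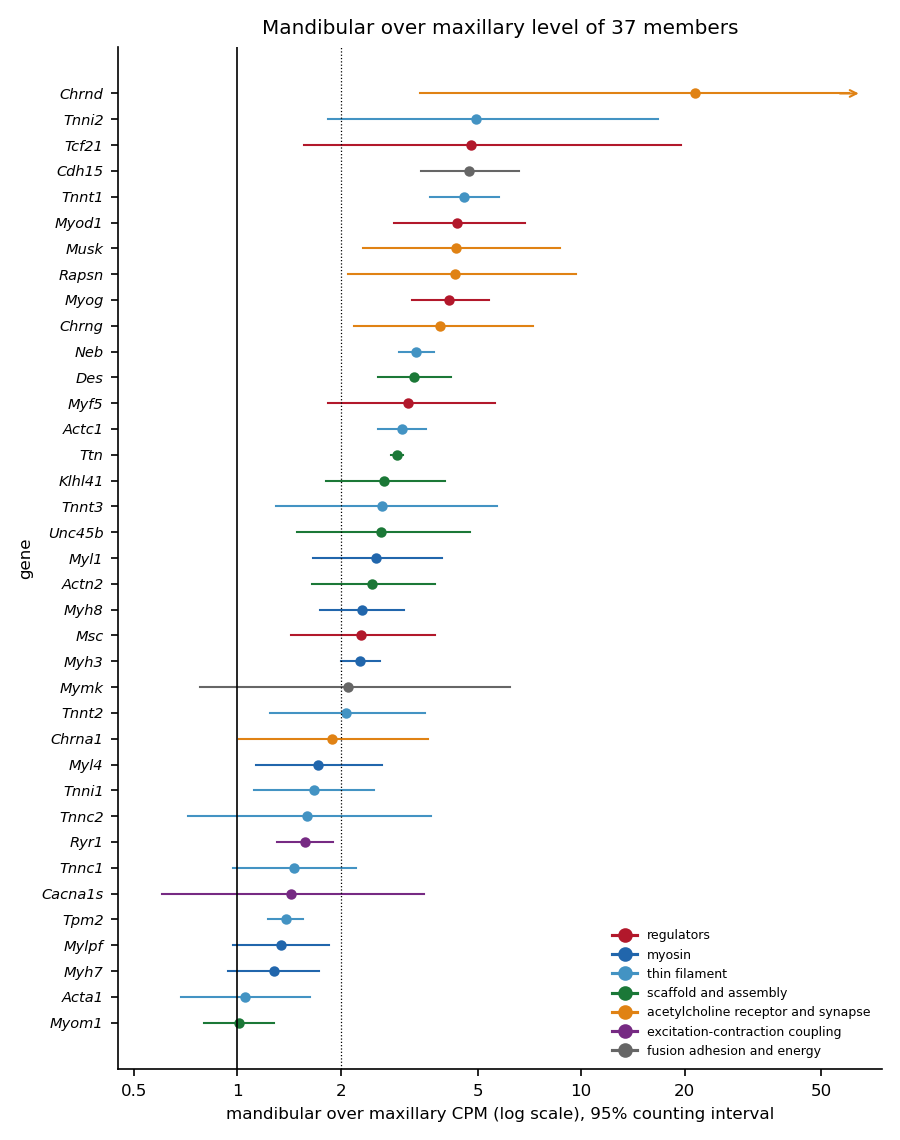
Mandibular over maxillary CPM (log scale) of the 37 members with at least 20 counts in these libraries together, ordered by size and coloured by role, with 95% counting intervals as lines and the arrow for an interval that runs off the axis. Of the 37 intervals, 29 lie above 1 and 8 include it, and Acta1 and Myom1 sit at 1.06 and 1.01.

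The size of the step between the mandibular and maxillary libraries differed among the members. Over the 37 members with at least 20 counts it ran between 1.01-fold and 21.4-fold, with a median of 2.53-fold. The regulators had a median of 4.14-fold (5 members, range 2.29 to 4.79) and the synaptic genes 4.28-fold (5 members). The median was 1.998-fold for myosin genes, 2.07-fold for the thin filament and 2.64-fold for scaffold and assembly genes. Set against Myog, whose fold served as a yardstick so that normalization cancelled, 19 of 36 members had a smaller fold with an interval below 1 and 17 had an interval that included 1. By class, 1 of 4 regulators (Msc) and 18 of 32 other members were in the smaller group. Members with few counts had wide intervals that could hardly leave out 1, such as Tcf21 (0.363 to 4.86), so these counts do not compare the classes. The lowest ratios to the Myog fold were those of Myom1 (0.245, interval 0.172 to 0.347), Acta1 (0.256, interval 0.153 to 0.425) and Myh7 (0.309, interval 0.206 to 0.461), while Tnnt1 (1.10, interval 0.776 to 1.56) and Cdh15 (1.14, interval 0.751 to 1.75) had intervals that included 1. Myog was taken as the yardstick after its values were seen, and 0 members had an interval above 1. The same comparison was not run over all genes, so these counts have no background share.

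Over all 40 members, those at or near 0 included, the median log2 difference was 1.12 between the mandibular and maxillary libraries and 1.94 between the first arch and nasal means. Over the 36 members with at least 1 CPM the medians were 1.16 and 2.04, where the medians of all 16146 genes so measured were 0.00 and 0.01. Members that passed this minimum did so through the mandibular library, so the second pair of medians is a description of the genes that were detected.

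Levels per unit length showed which gene of each family prevailed. In the mandibular library Tnnt1 was the most abundant member at 34.7 TPM, followed by Tpm2 at 31.1, Actc1 at 27.3, Myog at 13.7 and Mylpf at 11.49 TPM, whereas Ttn, first by counts, stood at 9.38 TPM. Tnnt1 made up 87.0% of troponin T in the mandibular and 78.2% in the maxillary library, and Actc1 92.6% and 81.5% of the sarcomeric actins Actc1 and Acta1. Myh3 held 69.8% of the sarcomeric heavy chain TPM in the mandibular and 65.0% in the maxillary library, over 7 genes, of which the adult fast chains Myh1, Myh2 and Myh4 had 20, 7 and 3 mandibular counts. In the nasal libraries Tpm2 accounted for much of the set, with 22.7 of 36.4 TPM in the lateral nasal and 27.4 of 38.0 TPM in the medial nasal library.

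**Figure D4:**
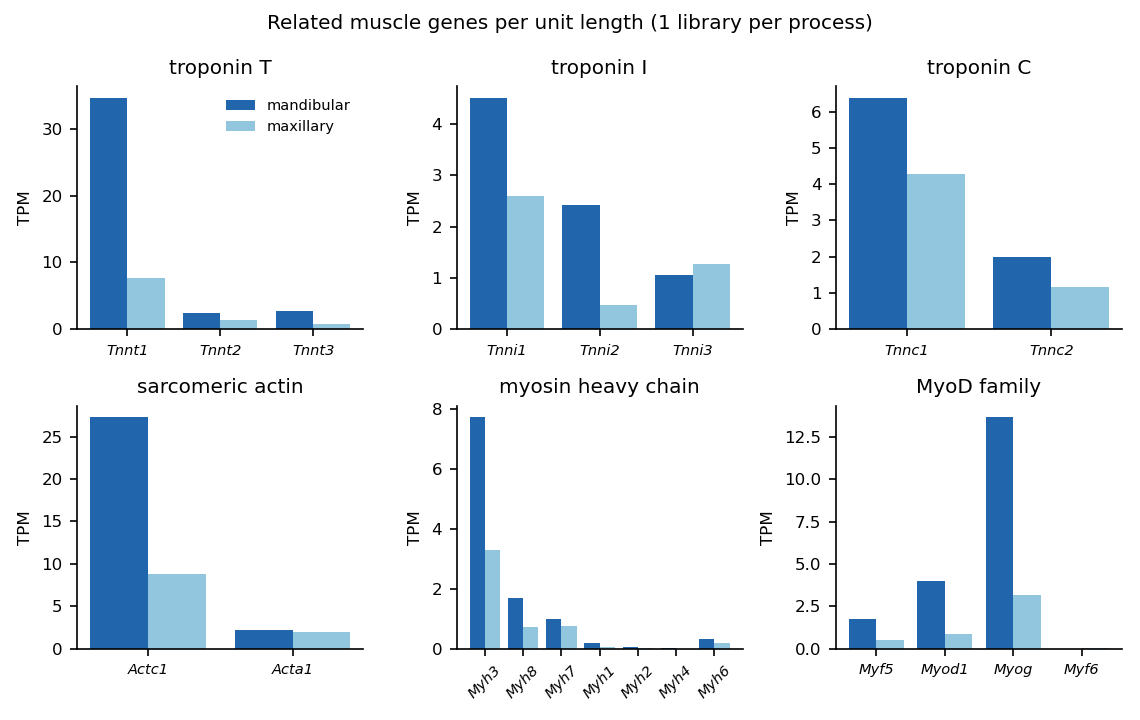
TPM of related genes in the mandibular (dark) and maxillary (light) libraries, in 6 families with axes of their own starting at 0, with 1 library per process and so no error bars. Tnnt1, Actc1, Myh3 and Myog lead their families in both libraries, at 34.7, 27.3, 7.71 and 13.7 TPM in the mandibular library.

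Other muscle genes were read from lists outside the 40. Of 36 further muscle genes, only 18 reached 1 CPM in a library. Of the 36, 30 were highest in the mandibular library (26.9% of the 16146 genes tested were), and 2 were called there (background 0.65%). These were Atp2a1, the calcium pump of fast muscle, and Smyd1, a methyltransferase of sarcomere assembly. In the mandibular, maxillary, lateral nasal and medial nasal libraries Atp2a1 had 8.17, 1.84, 0 and 0.30 CPM. Smyd1 had 6.46, 2.44, 0.43 and 0.44 CPM in the same order. The most abundant of this list, Tpm1, Srl and Eno3, were made at similar levels in all 4 libraries, Tpm1 at 344, 408, 312 and 403 CPM in that order. Of 14 progenitor and upstream factors, 5 were highest in the mandibular library (26.9% of the genes tested were) and 1 was called there (background 0.65%). This was Tbx1, a T-box factor of pharyngeal mesoderm, at 5.94 CPM against 1.12, 0.98 and 1.33 CPM in the maxillary, lateral nasal and medial nasal libraries. Lbx1, a homeobox factor of migrating muscle precursors, had 26 mandibular counts and 0 elsewhere. The list as a whole had a median log2 difference of 0.04 between the mandibular and maxillary libraries, and its most abundant members were not highest in the mandibular library. The paired-box factors Pax3 and Pax7 were called higher in the lateral nasal library (29.5, 69.4, 155 and 55.1 CPM for Pax3 and 3.49, 4.08, 113 and 21.1 CPM for Pax7 in the mandibular, maxillary, lateral nasal and medial nasal libraries). Other abundant factors varied less, the homeobox factor Six4 at 81.9, 96.0, 103 and 104 CPM and its cofactor Eya1 at 83.6, 95.3, 120.0 and 145 CPM.

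Several members are also made by heart or smooth muscle, so markers of these and other cell types were measured beside them. Of the 11 heart markers, Nppb had 0 counts in all 4 libraries and Nppa had 0 to 2. The summed level of the heart list was 19.1 CPM in the mandibular, 22.9 CPM in the maxillary, 14.1 CPM in the lateral nasal and 13.5 CPM in the medial nasal library, most of it from Ryr2 and Pln. The ventricular light chain Myl2 had 1 mandibular and 11 maxillary counts and Myl7, the atrial one, 1 and 8, against 0 to 2 in the nasal libraries. Mybpc3, the myosin-binding protein of the heart, had 3 mandibular and 12 maxillary counts. Myh6, a heavy chain of the heart, was instead highest in the mandibular library. It had 32 mandibular, 20 maxillary, 7 lateral nasal and 7 medial nasal counts. Tnni3 had 9 to 11 counts and Myl3 2 to 5 counts in each library. Nkx2-5, a factor of the heart and of first arch tissue, had 39 mandibular counts, 0 maxillary, 1 lateral nasal and 0 medial nasal. Their part in the levels of Actc1, Acta1, Myh7, Tnnt2 and Tnnc1 was not tested.

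Of 8 smooth muscle markers, 1 was called higher in the mandibular library (background 0.65%). Acta2, the smooth muscle actin that developing skeletal muscle also makes, had 49.7 CPM in the mandibular, 12.9 CPM in the maxillary, 1.29 CPM in the lateral nasal and 3.33 CPM in the medial nasal library, and the first arch libraries differed 3.85-fold (interval 3.28 to 4.54). The actin-associated genes Smtn and Tagln did not follow this order, Smtn lying at 20.5, 22.9, 20.6 and 25.9 CPM and Tagln at 5.20, 7.97, 4.86 and 5.77 CPM. With Acta2, Myocd and Actg2 made 3 of the 8 markers highest in the mandibular library (26.9% of the 16146 genes tested were). Myocd had 28 mandibular, 5 maxillary, 8 lateral nasal and 22 medial nasal counts, and Actg2 had 8, 2, 0 and 6 in that order. Myh11, the smooth muscle myosin, had 11 to 15 counts in each library. The list summed to 80.9, 46.9, 30.0 and 40.9 CPM. Endothelial markers summed to 258, 236, 221 and 241 CPM and mesenchymal markers to 1878, 1974, 1515 and 1204 CPM in the mandibular, maxillary, lateral nasal and medial nasal libraries. Most of the mesenchymal sum came from Prrx1 (864, 888, 379 and 282 CPM) and Pdgfra (707, 517, 578 and 555 CPM). Over the 5 mesenchymal genes the median log2 difference was -0.72 between the mandibular and maxillary libraries and 0.09 between the first arch and nasal means. Prrx2 and Msx1 were lowest in the mandibular library. Neuronal markers ran opposite to the members, at 36.2 CPM in mandibular tissue and 117 CPM in maxillary tissue, against 165 CPM in the lateral nasal and 263 CPM in the medial nasal library. All 4 neuronal genes were highest in the medial nasal library, as were 6820 of all 43346 entries. Only 22211 of these entries had a count in the medial nasal library, and an entry without a count there cannot be highest in it. Epithelial markers summed to 116, 127, 237 and 218 CPM in the mandibular, maxillary, lateral nasal and medial nasal libraries, those of red blood cells to 3256, 4343, 4633 and 2927 CPM in that order, and markers of leukocytes to 12.7 to 16.9 CPM over the 4 libraries. The part of these marker levels in those of the members was not tested.

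**Figure D5:**
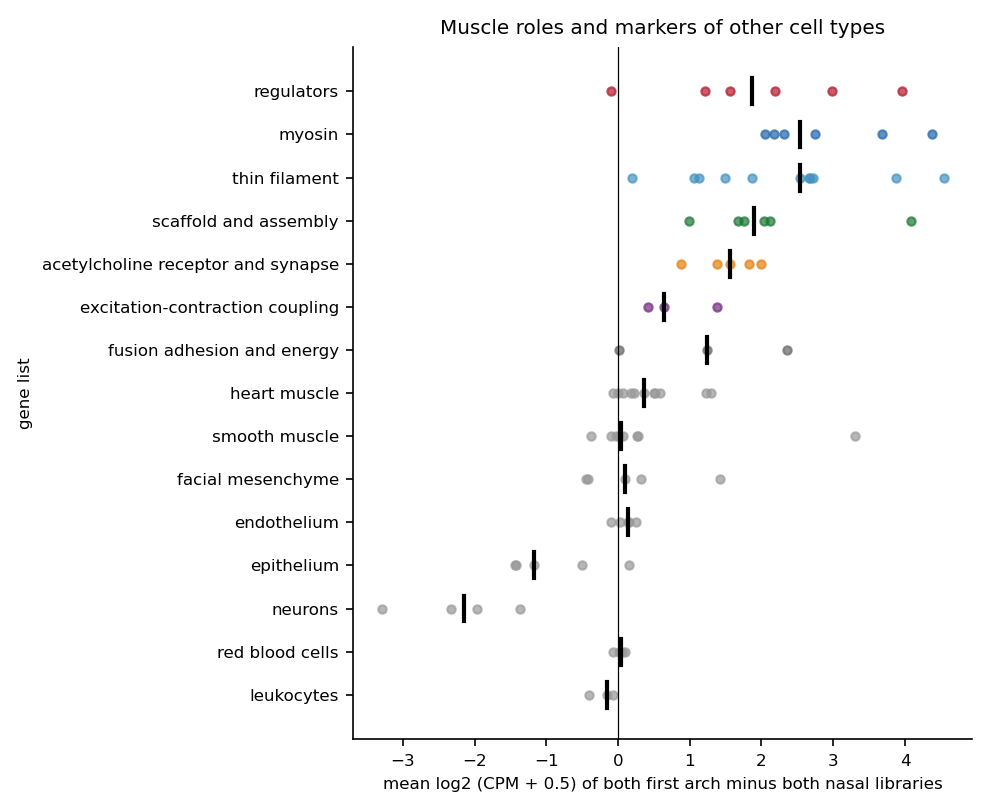
Difference between the first arch and nasal libraries for each gene (points) of the 7 muscle roles (colour) and of 8 marker lists of other cell types (grey), as the mean log2 of CPM plus 0.5 in both first arch libraries minus that in both nasal libraries, with the list median as a bar. Myosin and thin filament genes have medians of 2.53 and 2.54, heart and smooth muscle markers 0.36 and 0.04, and neuronal markers -2.15. Medians are over all genes of a list. Only 4 of the 11 heart markers reached 1 CPM, with a median of 0.80, whereas all myosin and thin filament genes did.

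The exons of 13 members overlap a gene on the opposite strand, by 3 to 1309 bases, among them Ttn, Neb, Des, Myh7, Myom1, Ryr1 and Msc. The kit marks strand, but whether counting used it is not given in the sources used here, so reads of such pairs may not have been told apart. Reads that match closely related genes, such as the heavy chains or the actins, were shared out by estimation, and for each member the posterior mean count lay within 4% of the expected count.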

How the data were processed

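For each process the authors sequenced 1 stranded library of total RNA depleted of ribosomal RNA (single-end, 50 bp), mapped it with STAR (mm10) and ran RSEM 1.4.1 with GENCODE M4. Expected counts, as deposited, carry no normalization, and the authors also deposited posterior mean counts and TPM (length-corrected shares). Here expected counts of 43346 gene entries were rounded, 26248 entries carrying only a number and 96 spike-in entries were left out (at most 5 counts per library), and 884 IDs, with 0.307 to 0.342% of counts, had no symbol. TMM factors (17230 genes reaching 10 counts, edgeR 4.0.16) were 0.985 to 1.02. Ratios of CPM carry exact (Clopper-Pearson) conditional 95% intervals. A fold against 0 counts was taken with 3 counts in place of the 0 and has no interval. Reads without molecular identifiers are not independent molecules, so intervals cover counting error only. The members and lists were chosen with earlier results of these data known. All 40 members are accounted for, with values in all 4 libraries for the regulators and for members at 5 CPM or more, and up to 4 genes named from each other list, apart from markers and genes named for their values. Alternatives were DESeq2 1.42.0 size factors, total counts, TPM, posterior mean counts, pseudocounts, minimum levels, a 3-fold threshold and removal of uncertain counts.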

Additional observations from a re-analysis of the deposited data

How the results depend on the processing

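The counts of members called depended mainly on the minimum level. Members higher in the mandibular library than in each other library numbered 13, and 22 with a minimum of 1 CPM or none, 6 with a minimum of 20 CPM, 6 with a 3-fold threshold and 8 with the deposited TPM, and the count against the maxillary library alone took the same values. Members higher in both first arch libraries numbered 8, and 20 with a minimum of 1 CPM, 23 with none, 3 with a minimum of 20 CPM and 3 with TPM. A pseudocount of 2 lowered both mandibular counts to 9 and left the first arch count at 8. The median log2 difference between the first arch and nasal libraries, 2.04, was 2.80 with a pseudocount of 0.1, 1.12 with a pseudocount of 2 and 2.51 over members with at least 5 CPM, and that between the mandibular and maxillary libraries, 1.16, was 0.71 with a pseudocount of 2. All 18 members with at least 5 CPM reached it in the mandibular library, so the value of 2.51 only describes the genes that passed this minimum. DESeq2 size factors, total counts, posterior mean counts and removal of uncertain counts left the counts of calls at 13, 13 and 8. Of 259 mandibular minus maxillary differences of 37 single members over 7 alternatives, 1 changed sign (Myom1, 0.02 on the log2 scale and -0.0046 with posterior mean counts, where the counting interval of the fold included 1) and 1 moved past its counting interval, that of Ttn with TPM (1.77 against 1.54 on the log2 scale). No paired analysis was possible because each process had 1 library, and for the same reason no replicate could be left out. Most members had under 100 counts in the maxillary library and few in the nasal libraries, so folds against the nasal libraries are known only within wide intervals.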
